A study of Mus musculus with 9 samples.

Results

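The genes described here encode proteins of the splicing machinery: the Sm proteins and the U1 and U2 particle proteins named with them, the Sm-like (LSm) proteins, the subunits of splicing factor SF3, and the Gemins. They were chosen by name, as the probe sets that the array's annotation assigns to a single gene symbol beginning Snrp followed by a digit or a letter from a to g, or reading Lsm, Sf3a, Sf3b or Gemin with a number. This gave 78 probe sets of 33 genes, out of 45037 probe sets (without controls) and 18193 genes with a probe set of their own. Probe sets annotated to several symbols were left out, which removed 6 probe sets with a symbol of the same pattern. The families differed in size: 8 Sm and U particle genes, 12 LSm genes, 9 SF3 genes and 4 Gemins.

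Expression had been measured on 9 Affymetrix Mouse 430 2.0 arrays, on which each probe set is a group of short oligonucleotides matched to a transcript. Total spinal cord of wild-type mice, motor neurons of wild-type mice and motor neurons of SOD1-mutant mice were run on 3 arrays each. The neurons were collected by laser capture microdissection, in which a laser frees single cells from sectioned tissue. SOD1 is the gene of a superoxide dismutase, and its mutations underlie a familial form of the motor neuron disease ALS. The labels name neither the SOD1 allele and its promoter nor the age of the mice, and the code D28 in the titles is not explained. The labels give ventral spinal cord as the source of every array but describe the tissue arrays as total cord, and they do not say whether arrays share an animal, so the p-values rest on variation among these arrays that could be technical alone.

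Splicing removes introns from newly made transcripts. Sm proteins form a ring around the small nuclear RNAs U1, U2, U4 and U5; LSm proteins form a like ring on U6 in the nucleus and a related ring in the cytoplasm that takes part in removing the cap of mRNAs. SF3a and SF3b are parts of the U2 particle, where they help to hold it on the branch site of the intron. The Gemins work with SMN, the protein lost in spinal muscular atrophy, to load Sm rings onto small nuclear RNAs, a step long studied in motor neurons.

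Signal is given as the linear intensity that the authors deposited. A probe set passed when limma's adjusted p was below 0.05, and log2 changes were computed on log2(signal + 20.3), so changes of dim probe sets are understated. Arrays had a common trimmed mean of 2500, but the median signal was 556 to 583 on cord arrays and 269 to 366 on captured arrays, so the direction of a small change depends on the scaling. The control transcript Gapdh had 3′ signal over 5′ signal, as a log2 ratio, of -0.28 ± 0.01 in cord, 4.03 ± 0.44 in wild-type and 4.49 ± 0.15 in mutant motor neurons (SD, n = 3). The summed signal of 9 motor neuron marker genes was 15160 to 20498 on cord arrays and 211890 to 230172 on captured arrays. Most of the captured sum came from Calcb and Chodl (means of 102199 and 69249 in wild-type neurons). Of the 9, 8 passed higher in wild-type neurons against cord. Slc5a7 rose only 1.78-fold, and Chat did not pass (1.53-fold, adjusted p = 0.0816). Oligodendrocyte markers (7 genes) summed to 498951 to 588146 in cord and 240067 to 309659 in captured cells, and astrocyte markers (7 genes) to 252456 to 287752 and 75623 to 112482. The part of the 3′ bias and of glial RNA in the changes below was not tested, and in whole tissue fewer cells of a type cannot be told apart from less RNA per cell.

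Wild-type motor neurons were first set against wild-type cord, which asks how captured motor neurons differ from the tissue around them. Most LSm and Sm genes were brighter in the motor neurons on their brightest probe set, with Snrpe (3.39-fold), Snrpa1 (3.25-fold), Lsm8 and Lsm3 (2.62-fold and 2.61-fold) in front. Over all tested probe sets these families were closer to balance. Of 16 Sm and U particle probe sets 7 rose and 6 fell (median log2 change 0.04), and of 19 LSm probe sets 8 rose and 5 fell (median 0.14). Those shares stand beside 24% and 41.5% of all probe sets. SF3 genes were split, and of the Gemins none passed higher with the authors' scaling, though some did in the others. Of the 78 probe sets, 68 lay above the filter on dim values and 10 did not, and every one of the 33 genes kept at least 1. Of these 68, 21 rose and 26 fell; among all 27022 probe sets tested 65.5% passed, 24% rising and 41.5% falling. Counted by gene on the brightest probe set, 16 of 33 rose and 7 fell, where 67.3% of all 12983 genes passed, 31.1% higher and 36.1% lower. Brightness was the average of the group means, in which both captured groups count. For members and all genes alike, the choice thus favours probe sets high in captured neurons. By cord signal alone another probe set would stand for several genes. That of Snrpa1 did not pass (log2 change 0.16), and those of Sf3b6 and Gemin5 fell (-0.20 and -1.02). That of Sf3b2 rose 1.53-fold. The arrays of both groups did not overlap for 23 member probe sets that were higher and 27 that were lower, against 26.4% and 45.4% of all probe sets. The median log2 change of the 68 probe sets was -0.09 and that of all probe sets -0.35. The plot of log2 changes by gene shows that the probe sets of many genes lie on both sides of 0.

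**Figure D1:**
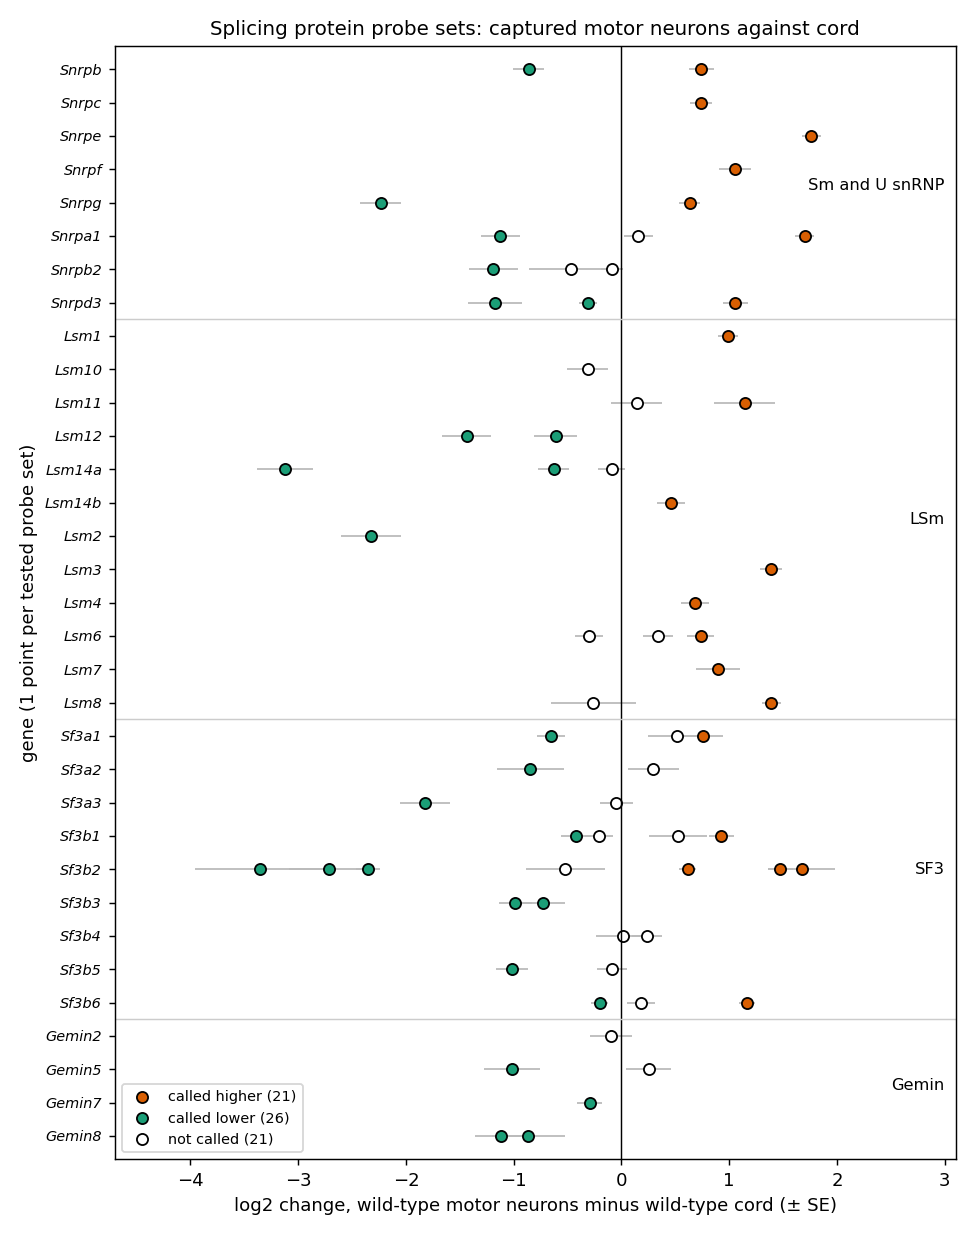
Log2 change of each tested probe set between wild-type motor neurons and wild-type cord (x axis, bars are SE of the limma fit on 3 arrays against 3), with genes grouped by family on the y axis. Of 68 probe sets, 21 were called higher, 26 lower and 21 not called, and 8 genes carry calls on both sides of 0.

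The scaling moved the zero line of these changes. After quantile normalization 29 of the 68 probe sets rose and 18 fell (median 0.27), where 35.9% of all probe sets rose and 28.2% fell (median 0.14). After centring each array on its median 41 rose and 8 fell (median 0.64), where 43.3% of all rose and 23.1% fell (median 0.38). Among all genes by brightest probe set, 42.0% rose and 26.1% fell after quantile normalization and 53.2% and 18.7% after centring, and the gene counts below under these scalings stand beside those shares. Both other scalings moved the changes upward (median of all probe sets -0.35 with the authors' scaling), which tends to keep rises and to remove falls. The counts of kept calls that follow thus do not measure how firm a rise is, and the same counts for all probe sets are not given here. All 21 probe sets that rose with the authors' scaling, from 19 genes, also rose in both others. Of the 26 that fell, only 8, from 6 genes, fell in all 3 scalings: those of Lsm2, Lsm12, Lsm14a, Sf3a3 and Snrpg with 1 probe set each, and Sf3b2 with 3. A probe set each of Snrpa1, Snrpb, Snrpb2, Snrpd3, Sf3b3, Sf3b5 and Sf3b6 fell with the authors' scaling and after quantile normalization, but not after centring. The remaining falls were called with the authors' scaling only.

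Among the Sm proteins, Snrpe had the largest rise. This small protein of the Sm ring is read by 1 probe set, which gave 15503, 18231 and 16803 on the cord arrays, 56514, 61631 and 53244 on wild-type motor neuron arrays and 75261, 41333 and 55842 on mutant ones. Every captured array was above every cord array, and the log2 change in wild-type neurons was 1.76 ± 0.09 (SE, adjusted p = 7.70e-07). Snrpf, its neighbour in the ring, gave 3826, 4249 and 4134 in cord, 6809, 10193 and 8763 in wild-type and 7513, 9523 and 8411 in mutant motor neurons. It rose 2.08-fold in wild-type neurons (log2 change 1.06 ± 0.15, adjusted p = 0.000268), again without overlap of the arrays. Snrpc, a protein of the U1 particle that helps to recognise the start of an intron, lay at 10008, 9864 and 9658 in cord, 14295, 18631 and 16668 in wild-type and 11050, 14364 and 14749 in mutant neurons, a rise of 1.67-fold in wild-type neurons (adjusted p = 0.000298).

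Snrpa1 and Snrpb2 are partners on the U2 RNA, and their brightest probe sets differed. That of Snrpa1 gave 5399, 6033 and 5809 in cord, 17731, 18754 and 19626 in captured wild-type neurons and 18739, 18944 and 16095 in mutant ones (log2 change in wild-type neurons 1.70 ± 0.09, adjusted p = 8.48e-07). That of Snrpb2 gave 7542, 7372 and 6611 in cord, 7255, 6642 and 6385 in wild-type and 9474, 7932 and 7348 in mutant neurons, with overlapping arrays in wild-type neurons and cord and a log2 change of -0.09 ± 0.10 (adjusted p = 0.474). The brightest rose after centring (0.64, adjusted p = 0.000548). A second Snrpb2 probe set was 2.28-fold lower in wild-type neurons (adjusted p = 0.00160), but not after centring (-0.47, adjusted p = 0.0903). Snrpd3, another ring protein, was the only gene of its family whose brightest probe set fell: it gave 12414, 11189 and 11707 in cord, 8976, 9811 and 9656 in wild-type and 8313, 7908 and 9293 in mutant neurons (log2 change -0.31 ± 0.09, adjusted p = 0.0113). That fall turned to a rise of 0.41 after centring, and without cord replicate 1 it was -0.27 and no longer passed (adjusted p = 0.0600). By brightest probe set, 6 of 8 genes of this family rose and 1 fell; all 8 rose after centring, and 6 rose and 1 fell after quantile normalization.

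The LSm genes had 8 of 12 higher and 2 lower by brightest probe set, and the same counts after quantile normalization, with 9 higher and 1 lower after centring. Lsm8, which marks the nuclear ring on U6, gave 5621, 5199 and 5385 in cord, 14008, 13479 and 15159 in captured wild-type neurons and 11566, 15395 and 12725 in mutant ones. Its log2 change in wild-type neurons was 1.39 ± 0.09 (adjusted p = 2.52e-06). Lsm1, which takes the place of Lsm8 in the cytoplasmic ring, gave 4600, 4548 and 4814 in cord, 8582, 9768 and 9487 in wild-type and 9465, 11264 and 10583 in mutant neurons, a rise of 1.99-fold in wild-type neurons (log2 change 0.99 ± 0.09, adjusted p = 2.57e-05). On these probe sets, Lsm8 and Lsm1 were each higher on all captured arrays than on any cord array. Another Lsm8 probe set overlapped and did not pass in any scaling (log2 change -0.26, adjusted p = 0.581 with the authors' scaling). Another Lsm1 probe set, left out by the filter on dim values, was lower on all captured arrays than on any cord array. Its mean signal was 584 in cord, 144 in wild-type and 149 in mutant neurons, above background on 1 of 3 arrays of either captured group.

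Of the subunits that both rings share, Lsm3, Lsm4, Lsm6 and Lsm7 rose on their brightest probe sets and Lsm2 fell. Lsm3 gave 7714, 8089 and 7392 in cord, 22899, 18067 and 20001 in wild-type and 16500, 17411 and 19435 in mutant neurons (log2 change in wild-type neurons 1.39 ± 0.10, adjusted p = 5.86e-06). Lsm4 (1.61-fold), Lsm6 (1.66-fold) and Lsm7 (1.86-fold) rose less, with adjusted p = 0.00156, 0.000984 and 0.00405, and another Lsm6 probe set did not pass (log2 change -0.30, adjusted p = 0.0727), but was called lower after quantile normalization (-0.36, adjusted p = 0.0392) and higher after centring (0.42, adjusted p = 0.01996). Lsm2 was read by 1 probe set, which gave 1542, 1436 and 1582 in cord, 195, 369 and 324 in wild-type and 235, 191 and 298 in mutant neurons. It was 5.02-fold lower in wild-type neurons (log2 change -2.33 ± 0.28, adjusted p = 9.72e-05), the opposite direction from the other shared subunits measured. Lsm2 stayed lower after quantile normalization (-1.44) and centring (-1.60), and it lay above background on all wild-type captured arrays and on 2 of 3 mutant ones, where background is the level of bacterial control probe sets on the same array.

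**Figure D2:**
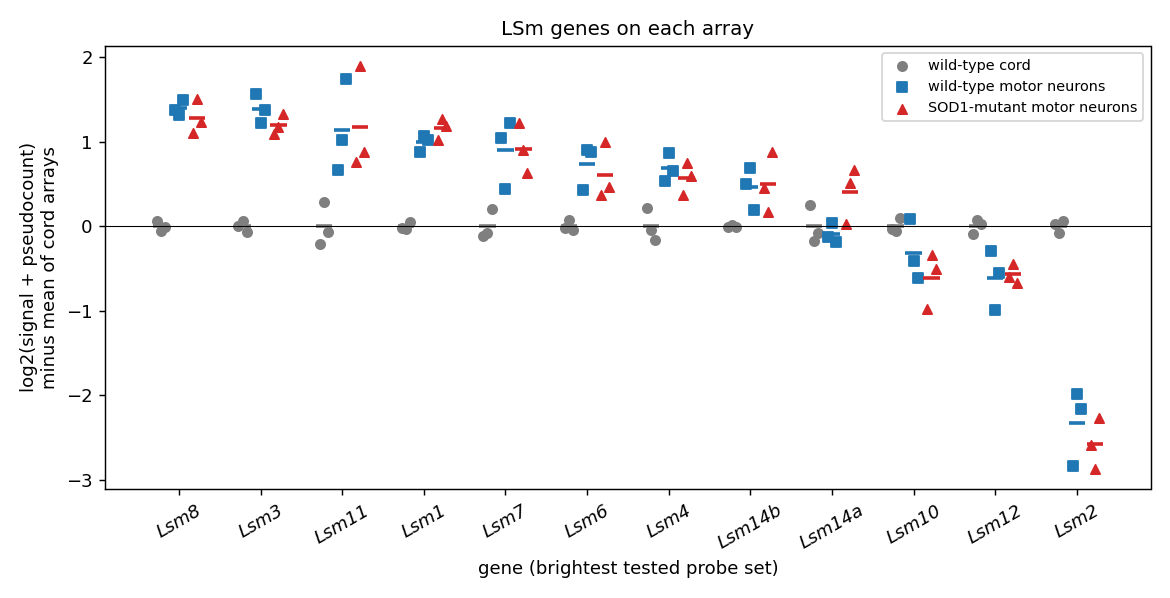
Log2(signal + 20.3) of the brightest tested probe set of each of the 12 LSm genes, as the difference from the mean of the 3 cord arrays (y axis), for every array of the 3 groups; bars are group means. Lsm8, Lsm3, Lsm1, Lsm4, Lsm6 and Lsm7 lie above 0 on all captured arrays and Lsm2 lies far below 0 on all of them.

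The larger LSm proteins went both ways. Lsm11, which with Lsm10 replaces a pair of Sm proteins in the U7 particle that trims histone mRNAs, gave 785, 1116 and 867 in cord, 1456, 1877 and 3103 in wild-type and 1559, 3445 and 1691 in mutant motor neurons. It rose 2.21-fold in wild-type neurons (log2 change 1.14 ± 0.28, adjusted p = 0.00660) on arrays that did not overlap but spread widely, and its other probe set did not pass (log2 change 0.14, adjusted p = 0.612), but rose after quantile normalization (1.04, adjusted p = 0.00295) and centring (0.87, adjusted p = 0.0101). Lsm10 gave 2265, 2214 and 2465 in cord against 2454, 1732 and 1503 in wild-type neurons and did not pass (log2 change -0.31 ± 0.19, adjusted p = 0.181; 0.31 and 0.41 after quantile normalization and centring, not passing either). Lsm14b, an RNA-binding protein of cytoplasmic granules, rose 1.38-fold (adjusted p = 0.0119).

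Its paralogue Lsm14a was read by probe sets that gave unlike answers. The brightest gave 18292, 13605 and 14498 in cord and 13994, 15792 and 13526 in wild-type neurons, which overlap (log2 change -0.09 ± 0.12, adjusted p = 0.538). It was called lower after quantile normalization (-0.35, adjusted p = 0.0464) and higher after centring (0.63, adjusted p = 0.00153). Another gave 5804, 6861 and 5486 in cord, 1046, 520 and 558 in wild-type and 551, 704 and 628 in mutant neurons, an 8.71-fold fall in wild-type neurons (adjusted p = 1.03e-05). Lsm12 fell on both of its tested probe sets, by a log2 change of 0.61 on the brighter one (adjusted p = 0.0242) and of 1.44 on the dimmer (adjusted p = 0.000592). The brighter one turned to 0.08 after quantile normalization and 0.11 after centring. It also missed the threshold when any cord replicate other than the first, or wild-type motor neuron replicate 3, was left out (adjusted p = 0.0775, 0.0723 and 0.0521).

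Among the SF3 subunits by brightest probe set, 2 of 9 rose, 2 fell and 5 did not pass; 3 rose and 2 fell after quantile normalization, and 7 rose and none fell after centring. Sf3b6, a small subunit that contacts the branch site, gave 11602, 10673 and 11184 in cord, 24340, 25802 and 24844 in captured wild-type neurons and 30202, 41954 and 39531 in mutant ones (log2 change in wild-type neurons 1.16 ± 0.08, adjusted p = 2.71e-06). Sf3b3 gave 6403, 5556 and 5370 in cord, 2390, 3019 and 3389 in wild-type and 3051, 2902 and 2636 in mutant neurons, a 1.98-fold fall in wild-type neurons (adjusted p = 0.000433), and its other probe set was 1.66-fold lower (adjusted p = 0.0138). The fall of the brightest Sf3b3 probe set did not pass after centring (log2 change -0.26, adjusted p = 0.150). Sf3b4 did not pass on either of its probe sets (log2 changes of 0.24 and 0.01). After centring both rose (0.96 and 0.74, adjusted p = 0.000279 and 0.0267), and after quantile normalization the dimmer one did (0.78, adjusted p = 0.0222).

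Over all SF3 probe sets tested, 6 of 27 rose (22.2%) and 11 fell (40.7%), near the 24% and 41.5% of all probe sets. For Sf3a3, a subunit of the SF3a trimer, the brightest probe set overlapped between the groups (4247, 4187 and 4054 in cord, 4846, 3195 and 4216 in wild-type neurons; log2 change -0.05 ± 0.16; called higher at 0.68 after centring). A second gave 3786, 3003 and 2796 in cord, 632, 1129 and 955 in wild-type and 331, 626 and 564 in mutant neurons, a 3.54-fold fall in wild-type neurons (adjusted p = 0.000151) that held in all 3 scalings. For Sf3b5 the brightest likewise overlapped and did not pass (adjusted p = 0.592), and a second fell 2.02-fold (adjusted p = 0.000303). After centring the brightest rose (0.64, adjusted p = 0.00299) and the fall of the second was lost (-0.29, adjusted p = 0.105).

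Of the 4 Gemins by brightest probe set, 2 fell and none rose with the authors' scaling, but 2 rose and none fell after quantile normalization, and 3 rose and none fell after centring. Gemin8, a small subunit that ties the SMN complex together, gave 1128, 1194 and 963 in cord, 624, 452 and 423 in wild-type and 518, 447 and 683 in mutant motor neurons, with no overlap of captured and cord arrays. It fell 2.17-fold in wild-type neurons (log2 change -1.11 ± 0.24, adjusted p = 0.00312), but did not pass after quantile normalization (-0.20, adjusted p = 0.493) or centring (-0.39, adjusted p = 0.184). Gemin7 fell 1.23-fold (adjusted p = 0.0494), and its change turned to 0.17 after quantile normalization and to 0.43 after centring. Leaving out any cord array, or wild-type motor neuron replicate 1 or 3, also ended the Gemin7 call (adjusted p = 0.0631 to 0.165). Gemin2, which holds the Sm ring during assembly, gave 905, 904 and 857 in cord and 867, 762 and 864 in wild-type neurons (log2 change -0.10 ± 0.19, adjusted p = 0.675), and rose after quantile normalization (0.80, adjusted p = 0.00546) and centring (0.63, adjusted p = 0.0179). Gemin5, which recognises small nuclear RNAs, did not pass on its brightest probe set (log2 change 0.25, adjusted p = 0.321), which rose after quantile normalization (1.13, adjusted p = 0.00138) and centring (0.98, adjusted p = 0.00357). Another Gemin5 probe set was 2.02-fold lower (adjusted p = 0.00762), a call lost in both other scalings (adjusted p = 0.784 and 0.352).

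Probe sets of the same gene often went opposite ways. At least 2 probe sets passed for 12 of these genes, and for 8 of the 12 (66.7%) they passed in opposite directions, against 1291 of 3722 genes on the whole array (34.7%); as the number of probe sets per gene differs, these shares were not tested against each other. The 8 were Snrpa1, Snrpb, Snrpd3, Snrpg, Sf3a1, Sf3b1, Sf3b2 and Sf3b6. After quantile normalization 8 of 11 such genes had opposite calls (34.1% of all genes), with Lsm6 in place of Sf3a1. After centring 4 of 12 did (33.7% of all genes): Snrpg, Sf3b2, Lsm14a and Sf3a3. Taking all tested probe sets of each of the 33 genes, 11 had calls only higher, 11 only lower, 8 both and 3 none. Of the 12 genes read by 1 tested probe set, 8 rose and 2 fell. Neither of these last counts was made for all genes on the array, so both describe these genes only.

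Snrpg, a protein of the Sm ring, shows the split most plainly. Its brighter probe set gave 14062, 13333 and 13333 in cord, 21192, 23648 and 18623 in captured wild-type neurons and 28675, 30772 and 27341 in mutant ones, a rise of 1.55-fold in wild-type neurons (log2 change 0.63 ± 0.10, adjusted p = 0.000504). The other gave 5883, 5628 and 5586 in cord, 1004, 1621 and 1046 in wild-type and 1090, 1737 and 1683 in mutant neurons, a 4.71-fold fall (log2 change -2.24 ± 0.19, adjusted p = 1.20e-05). In both cases cord and captured arrays did not overlap, and both calls held in all 3 scalings.

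Sf3b2, a large subunit of SF3b, had 3 probe sets higher, 3 lower and 1 without a call. The brightest gave 10563, 9181 and 11583 in cord, 28125, 32646 and 26310 in wild-type and 31081, 40295 and 32456 in mutant neurons (2.78-fold higher in wild-type neurons, adjusted p = 7.67e-06). The probe set with the smallest p among those that fell gave 7531, 7471 and 7151 in cord, 1345, 1478 and 1479 in wild-type and 1008, 1206 and 1336 in mutant neurons (5.10-fold lower, adjusted p = 5.70e-07). The other rises were 1.53-fold and 3.19-fold and another fall was 6.56-fold. The 3.19-fold rise was on a dim probe set near background in cord (186, 169 and 171, above it on 2 of 3 arrays), so its size is uncertain. The last fall was on a dim probe set that lay above background on 1 of 3 wild-type captured arrays and is given no fold. All 6 calls held in the 3 scalings.

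For the 6 other genes the spread was smaller. Snrpb, the ring protein with a long tail, rose 1.67-fold on its brightest probe set (9884, 9094 and 9790 in cord, 13933, 18899 and 15668 in wild-type neurons, adjusted p = 0.000541) and fell 1.82-fold on the other (adjusted p = 0.000678; -0.14 and 0.409 after centring). Snrpd3 rose 2.08-fold on one probe set (adjusted p = 5.93e-05) and fell 2.26-fold on another (adjusted p = 0.00303; 0.316 after quantile normalization and 0.140 after centring) beside the small fall of its brightest. Snrpa1 fell 2.18-fold on its dimmest tested probe set (adjusted p = 0.000536; 0.0741 after centring). Sf3a1 fell 1.57-fold on its brightest probe set (adjusted p = 0.00221; 0.449 after quantile normalization and 0.670 after centring) and rose 1.69-fold on a dimmer one (adjusted p = 0.00664). Sf3b1, the subunit that grips the branch site, gave 18065, 18738 and 17838 in cord and 18988, 13108 and 15750 in wild-type neurons on its brightest probe set, which did not pass (adjusted p = 0.182; called at -0.50 after quantile normalization and at 0.52 after centring), with 1 other probe set 1.90-fold higher (adjusted p = 0.000131) and 1 lower by 1.34-fold (adjusted p = 0.0243). That fall of Sf3b1 and the 1.15-fold fall of Sf3b6 on its second probe set (adjusted p = 0.0482) became 0.30 (adjusted p = 0.0928) and 0.52 (adjusted p = 0.000436) on the log2 scale after centring. Leaving out an array also ended these calls: without cord replicates 2 and 3 or wild-type motor neuron replicate 3 for Sf3b1 (adjusted p = 0.0990, 0.0854 and 0.0815), and without cord replicates 1, 2 and 3 or wild-type motor neuron replicates 2 and 3 for Sf3b6 (adjusted p = 0.172, 0.126, 0.0801, 0.0591 and 0.0954).

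**Figure D3:**
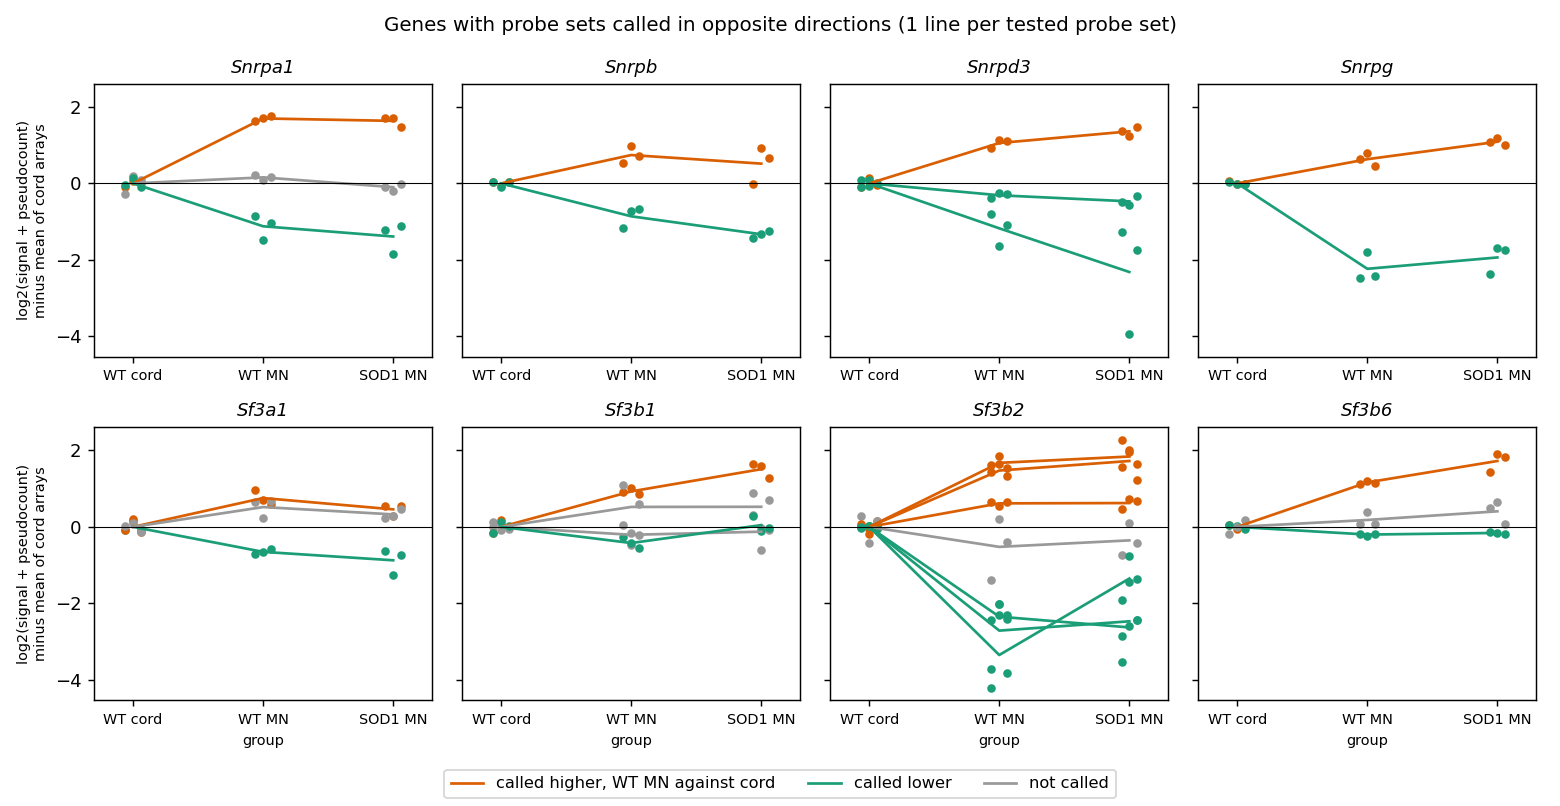
The 8 genes with called probe sets in both directions: log2(signal + 20.3) minus the mean of the 3 cord arrays (y axis) for each tested probe set, with 1 line through the group means and a point per array, coloured by its call between wild-type motor neurons and cord. Snrpg has a probe set above 0 and one about 2 units below it on all captured arrays. Sf3b2 has 3 called lines on either side, and its line without a call lies below 0 in both captured groups.

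The kind of probe set, read from the ending of its identifier, went with the direction; this was looked at after the values were seen. Endings _s and _x mark probe sets whose oligonucleotides match, or partly match, more than 1 transcript. Of 11 member probe sets ending _s_at, 7 rose and none fell in wild-type motor neurons against cord (median log2 change 0.73), where 35.8% of all 1657 such probe sets rose and 38.1% fell. Of 41 member probe sets with the plain ending _at, 10 rose and 18 fell (median -0.26), where 20.6% of all 20224 rose and 42.4% fell. Of the 11 ending _a_at, 2 rose and 7 fell, where 27.7% of all such probe sets rose and 46.9% fell. Of the 5 ending _x_at, 2 rose (40%) and 1 fell (20%), near the 45.5% and 23.6% of all such probe sets. With plain probe sets alone, the count of member genes higher went from 16 to 10. Part of this drop came from genes without a tested plain probe set, which were no longer measured. Snrpe, Snrpa1 and Snrpb, all higher on their brightest probe sets, were among these. The share of all genes higher with plain probe sets alone is not given here.

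The promoters of 4 genes are shown as examples, and no motif was tested against a change in signal. Lsm3 and Lsm8 had the largest rises among the LSm genes by brightest probe set. Snrpg and Sf3b6 had called probe sets on both sides of 0. They are also among the 3 with the smallest p between the genotypes, none of which passed. Each is the 250 bases before the annotated start, 5′ to 3′ on the strand of the gene, from RefSeq on GRCm38.p6: chr6:91515785-91516034 (Lsm3), chr6:18848385-18848634 (Lsm8), chr6:86371290-86371539 (Snrpg) and chr12:4817358-4817607 (Sf3b6), all on the plus strand. Capitals mark matches on either strand to the GC box (GGGCGG), the core that ETS factors bind (CCGGAAG) and the CCAAT box (CCAAT); in Lsm3 a pair of GC boxes share a base.
Lsm3: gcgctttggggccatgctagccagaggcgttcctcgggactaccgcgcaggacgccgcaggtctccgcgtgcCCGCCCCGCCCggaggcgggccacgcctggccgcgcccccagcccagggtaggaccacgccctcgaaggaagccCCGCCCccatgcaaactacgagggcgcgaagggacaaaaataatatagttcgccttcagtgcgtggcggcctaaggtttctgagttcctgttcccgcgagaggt
Lsm8: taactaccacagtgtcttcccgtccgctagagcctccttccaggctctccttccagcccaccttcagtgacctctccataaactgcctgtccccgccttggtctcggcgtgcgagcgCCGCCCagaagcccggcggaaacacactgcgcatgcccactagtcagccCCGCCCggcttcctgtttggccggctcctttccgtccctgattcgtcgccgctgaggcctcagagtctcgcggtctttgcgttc
Snrpg: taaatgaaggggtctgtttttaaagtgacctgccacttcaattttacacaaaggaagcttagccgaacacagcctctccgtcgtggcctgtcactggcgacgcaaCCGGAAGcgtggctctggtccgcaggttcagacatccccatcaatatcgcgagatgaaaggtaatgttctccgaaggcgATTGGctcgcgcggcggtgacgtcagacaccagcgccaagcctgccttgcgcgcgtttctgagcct
Sf3b6: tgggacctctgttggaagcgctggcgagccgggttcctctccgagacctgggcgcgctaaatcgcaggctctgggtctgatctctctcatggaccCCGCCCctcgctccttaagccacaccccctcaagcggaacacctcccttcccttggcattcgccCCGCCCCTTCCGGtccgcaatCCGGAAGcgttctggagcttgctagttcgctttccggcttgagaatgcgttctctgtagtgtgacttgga

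Lsm3 holds 3 GC boxes and Lsm8 2, Snrpg holds 1 ETS core and 1 CCAAT box, and Sf3b6 holds 2 GC boxes and 2 ETS cores, with 1 of each side by side. Entries were matched by symbol for 27 of the 33 genes; those of Lsm1, Lsm4, Lsm12, Sf3b4, Sf3b5 and Snrpb were not used here. The ETS core lay in this window in 10 of the 27 genes (37.0%), against 7.83% of all 27025 genes in the table. The GC box was found in 17 (63.0%, against 35.4%), the CCAAT box in 9 (33.3%, against 37.5%) and TATAAA in 1 (3.7%, against 14.3%). The palindromic NRF1 motif was in 0 of 27, against 0.877%. These shares describe letters in the windows only.

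Of 14 genes of the SMN complex and of particle assembly, 4 rose and 4 fell in wild-type motor neurons (7 and 2 after quantile normalization, 10 and 1 after centring). Smn1, the gene of SMN itself, was read by a probe set at 1597, 1674 and 1722 in cord, 75, 41 and 15 in captured wild-type neurons and 113, 56 and 195 in mutant ones. All wild-type captured arrays lay below background, so the fall is given as at least 11.97-fold (adjusted p = 1.62e-05). Strap, which binds SMN and Gemin proteins, gave 6572, 7100 and 7193 in cord and 21162, 26462 and 19894 in wild-type neurons (3.21-fold higher, adjusted p = 3.84e-06), and Clns1a, which brings Sm proteins to the methylating enzyme, rose 2.29-fold (adjusted p = 2.78e-05). Ddx20, a helicase also called Gemin3, fell 2.08-fold (adjusted p = 0.0279), a call lost after both other scalings (adjusted p = 0.609 and 0.434) and without cord replicates 1, 2 and 3 in turn (adjusted p = 0.0603, 0.0812 and 0.0613).

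The rest of the spliceosome was also mixed. Of 37 genes of U5, the tri-snRNP, the Prp19 complex and other core factors, 17 rose and 11 fell (18 and 8 after quantile normalization, 24 and 3 after centring). Usp39, a tri-snRNP protein, and Phf5a, a further subunit of SF3b outside the name pattern, rose 3.31-fold and 3.27-fold (adjusted p = 5.30e-07 and 1.52e-06). Crnkl1 and the U1 protein gene Snrnp70 fell 5.51-fold and 4.11-fold (adjusted p = 2.64e-05 and 0.000287). Of 9 genes of the minor spliceosome, which removes a rare class of introns, 5 rose and 2 fell, led by Snrnp48 (4.46-fold, adjusted p = 7.83e-07) and Zcrb1 (2.59-fold, adjusted p = 9.59e-07). The falls, of Snrnp35 and Zmat5, went to log2 changes above 0 that did not pass, after quantile normalization (0.17 and 0.32, adjusted p = 0.428 and 0.138) and centring (0.14 and 0.26, adjusted p = 0.512 and 0.231). Zmat5 (adjusted p = 0.0490) was also lost without cord replicates 1 and 3 and wild-type motor neuron replicates 1 and 2 (0.150, 0.153, 0.0882 and 0.0770), and Snrnp35 (0.0183) without cord replicates 2 and 3 (0.0528 and 0.0792).

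Among 16 SR proteins, which guide the choice of splice sites, and their kinases, 5 rose and 6 fell (5 and 6 after quantile normalization, 10 and 6 after centring). Srpk1 and Tra2a rose 2.25-fold and 2.16-fold (adjusted p = 2.08e-05 and 5.58e-06), and Srsf5 and the kinase gene Clk4 fell 4.46-fold and 3.27-fold (adjusted p = 5.97e-07 and 0.000198). Of 10 genes of decapping, where the cytoplasmic LSm ring acts, and of histone mRNA processing, 3 rose and 2 fell (5 and 1 in both other scalings). Edc3, a decapping factor, rose 2.46-fold (adjusted p = 1.28e-05) and Slbp, which binds histone mRNAs, also rose (log2 change 0.58 ± 0.09, adjusted p = 0.000394). The exonuclease gene Xrn1 fell 3.17-fold (adjusted p = 0.00242; 0.0505 after quantile normalization), and the helicase gene Ddx6 fell 1.69-fold (adjusted p = 0.000380; 0.809 after centring).

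SOD1-mutant motor neurons were then set against wild-type motor neurons, which asks whether the mutation goes with a change in these genes. No probe set of the 68 passed, in either direction, in limma's fit, where 0.222% of all 27022 probe sets passed (0.152% higher, 0.0703% lower). Of the 68, 10 had an unadjusted p below 0.05, a share similar to that of all probe sets (4117 of 27022). By brightest probe set 0 of 33 genes passed, against 0.254% of all genes (0.169% higher, 0.0847% lower). The median log2 change was -0.01, as it was for all probe sets tested. On the brightest probe sets of the 33 genes the changes ran from -0.45 (Sf3a3) to 0.56 (Sf3b6). Of the 68 probe sets, 9 were higher and 6 lower on all mutant arrays than on any wild-type captured array, where 10.5% and 11.7% of all probe sets were.

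The smallest p-values belonged to Sf3b6, Sf3b1, Snrpg, Lsm14a, Sf3b3 and Sf3b2, in that order. The brightest probe set of Sf3b6 was at 24340, 25802 and 24844 in wild-type and 30202, 41954 and 39531 in mutant motor neurons, without overlap (log2 change 0.56 ± 0.14, adjusted p = 0.136). The second Sf3b6 probe set was at 11274, 10974 and 11237 and at 11682, 11526 and 11294 (log2 change 0.04 ± 0.13, adjusted p = 0.904). For Sf3b1 a probe set gave 8701, 9454 and 8476 in wild-type and 14711, 14173 and 11229 in mutant neurons (0.58 ± 0.15, adjusted p = 0.138), while its brightest had a log2 change of 0.08 ± 0.22. The brighter Snrpg probe set gave 21192, 23648 and 18623 in wild-type and 28675, 30772 and 27341 in mutant neurons (0.46 ± 0.13, adjusted p = 0.162), and the other had a log2 change of 0.30 ± 0.28. When all 9 arrays shared 1 estimate of the spread, these 3 probe sets passed (adjusted p = 0.0323, 0.0417 and 0.0412 in the same order). That estimate draws on the cord arrays, which were closer to each other. They correlated at 0.976 to 0.983, wild-type captured arrays at 0.935 to 0.960 and mutant ones at 0.931 to 0.958. The shared fit may thus understate the error between the captured groups, and the share of all probe sets passing in it is not given here.

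The other 3 were further from the threshold. Lsm14a was at 13994, 15792 and 13526 in wild-type and 15660, 21774 and 24287 in mutant motor neurons on its brightest probe set, which overlap (log2 change 0.49 ± 0.17, adjusted p = 0.226). A dim Sf3b3 probe set gave 683, 937 and 779 against 500, 458 and 428, lower on all mutant arrays (-0.76 ± 0.30, adjusted p = 0.267), while the brightest differed by -0.02 ± 0.20. A dim Sf3b2 probe set gave 18, 155 and 29 against 166, 393 and 255 (adjusted p = 0.271); as 1 of 3 wild-type arrays lay above background, no size is given. The 6 genes with the largest changes between wild-type neurons and cord on their brightest probe sets differed between the genotypes as follows: Snrpe by -0.03 ± 0.19, Snrpa1 by -0.06 ± 0.13, Sf3b2 by 0.25 ± 0.14, Lsm8 by -0.11 ± 0.15, Lsm3 by -0.19 ± 0.14 and Lsm2 by -0.25 ± 0.46, none of which passed. With 3 arrays a group, changes of this size are within the error and cannot be taken as equality.

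**Figure D4:**
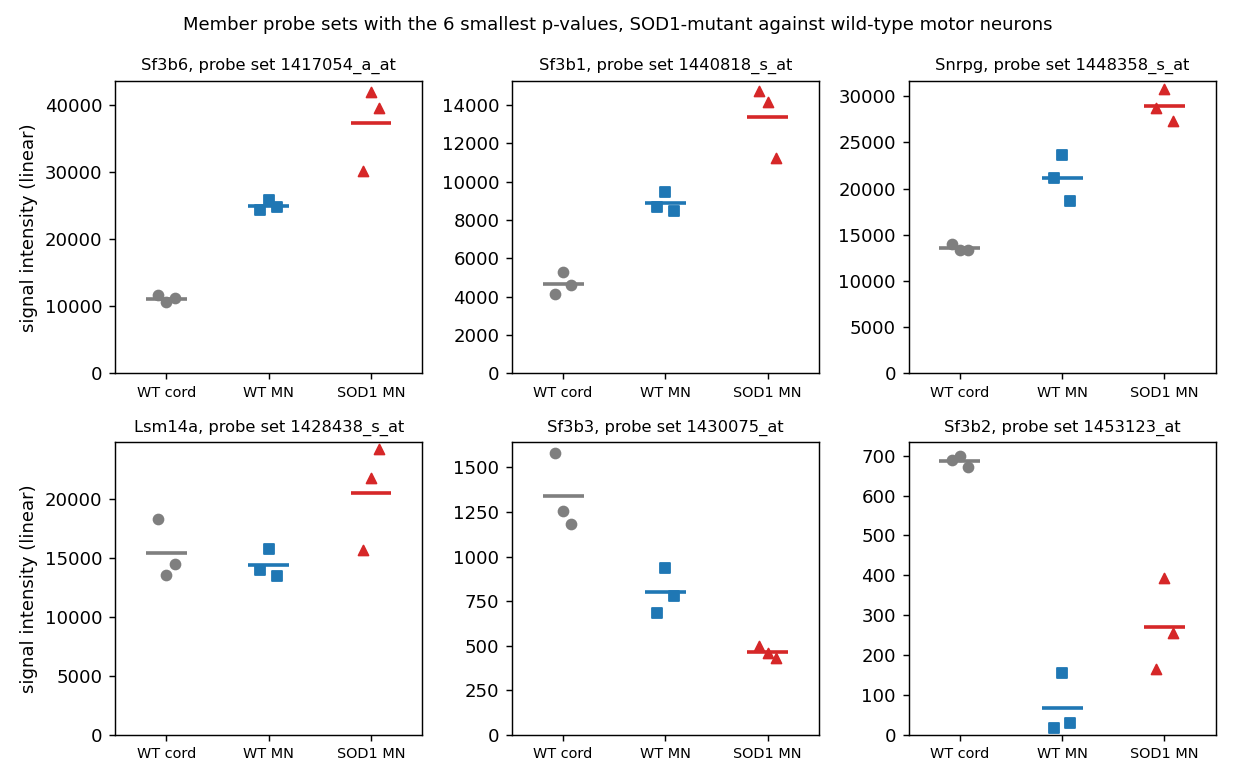
Signal on each array (y axis, linear, starting at 0) in cord and in the captured neurons of either genotype for the 6 member probe sets with the smallest p between the genotypes; bars are group means. Sf3b6, Sf3b1 and Snrpg are higher on all mutant arrays than on any wild-type motor neuron array, but none passed after adjustment.

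Summed markers of several other cell types, but not of inhibitory interneurons, also differed between the genotypes. The summed signal of 7 astrocyte markers was 75623 to 84478 on wild-type and 106828 to 112482 on mutant motor neuron arrays, with 1 of 7 passing higher, and that of 8 microglial markers 3420 to 3963 and 4939 to 5614, with none passing. Oligodendrocyte markers summed to 240067 to 252584 and 276421 to 309659, vascular and meningeal markers (6 genes) to 2124 to 2601 and 2952 to 3735, with none passing in either. Inhibitory interneuron markers (4 genes) summed to 17675 to 20326 and 16030 to 24175, which overlap, and none passed. The Gapdh 3′ to 5′ ratio differed by 0.46 and that of Actb by 0.75 (log2, 4.53 ± 0.41 against 5.28 ± 0.59 for Actb; two-sided exact permutation tests, p = 0.2 for each; 3 against 3 arrays cannot go below 0.1). No marker was at 0, and the part of these differences in the values of Sf3b6, Sf3b1 and Snrpg was not tested.

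In the pathway lists no gene passed between the genotypes either: 0 of 14 for SMN and particle assembly, 0 of 37 for the other core factors, 0 of 9 for the minor spliceosome, 0 of 16 for SR proteins and kinases and 0 of 10 for decapping and histone processing. At an unadjusted p below 0.05 these lists had 4, 3, 1, 4 and 0 genes, where 2182 of all 12983 genes tested did. Smn1 was at 75, 41 and 15 in wild-type and at 113, 56 and 195 in mutant neurons, with 1 mutant array above background, so no fold is given.

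Set against wild-type cord, which also served as the control of the first comparison, SOD1-mutant motor neurons had 22 of the 68 probe sets higher and 23 lower, where 62.1% of all probe sets passed, 21.9% higher and 40.2% lower. By brightest probe set 17 of 33 genes were higher and 8 lower, where 63.7% of all genes passed, 28.4% higher and 35.3% lower. The arrays did not overlap for 24 probe sets that were higher and 27 that were lower, against 25.1% and 44.9% of all. In all 3 scalings 20 probe sets were higher and 12 lower, and the same count for all probe sets is not given here. Snrpe (log2 change 1.73), Snrpa1 (1.64), Lsm8 (1.28), Lsm3 (1.20) and Sf3b6 (1.72) were higher and Lsm2 lower (-2.58) beside values of 1.76, 1.70, 1.39, 1.39, 1.16 and -2.33 in wild-type neurons. The shared cord arrays make the values of these comparisons dependent on each other.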

How the data were processed

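The values were linear signal intensities per probe set for 9 arrays, as deposited by the authors; their software and normalization: not given in the sources used here. All arrays had a trimmed mean of 2500 (2% taken off each end). Of 45101 probe sets, 64 controls were left out. Values were taken as log2(signal + 20.3), where 20.3 is the 10th percentile, and the 27022 probe sets above the 40th percentile, by the average of the group means, were kept for testing. Each comparison was fitted on its 6 arrays with limma 3.58.1 in R 4.3.3 (lmFit, eBayes, trend on intensity); p-values are two-sided and adjusted by Benjamini-Hochberg over all probe sets, with a threshold of 0.05. The code was tested on simulated data. A gene's brightest tested probe set, by the average of the group means of the log2 values, stood for it. Background on an array was the 95th percentile of 27 Bacillus subtilis probe sets; where a whole group lay below it, "at least" folds use that level. Gene symbols came from the platform annotation (34945 probe sets with 1 symbol, 932 with several, 9160 with none). The members and lists were chosen with earlier results of these data known. Genes described singly are the 3 largest rises and falls of each family, genes with opposite calls, the 6 smallest p-values between genotypes and up to 2 rises and falls per pathway list; others, and the probe set endings, were chosen after their values were seen. Replicate numbers come from the titles; deviations of same-numbered arrays correlated at 0.15, 0.17 and 0.00 between the motor neuron groups and at -0.04 to 0.03 with cord, so the numbers were not taken as pairs. Promoters were searched in Python 3.11.15 and figures drawn with matplotlib 3.10.9.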

Additional observations from a re-analysis of the deposited data

How the results depend on the processing

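The alternatives were other scalings, filters, pseudocounts (4 times smaller or larger), no intensity trend, 1 fit of all 9 arrays, the replicate number as a block, values raised to background, plain probe sets only, gene means over probe sets, and leaving out each array. For wild-type motor neurons against cord, centring gave 41 probe sets higher and 8 lower, and 27 genes higher and 1 lower; without _a_at, _s_at and _x_at probe sets 10 probe sets and 10 genes were higher; and with gene means 11 genes were lower. For mutant motor neurons against cord, centring gave 38 probe sets higher and 12 lower, where 41.6% of all probe sets rose and 21.8% fell. In that comparison 1 gene was lower after centring and 4 after quantile normalization, against 17.1% and 24.6% of all genes. Plain probe sets gave 12 probe sets and 11 genes higher there, and gene means 11 genes higher. The shares of all genes with plain probe sets or gene means are not given here. Genes without a tested plain probe set drop out of the plain counts. For mutant against wild-type motor neurons, all 9 arrays in 1 fit called 3 probe sets and 2 genes higher, and the replicate block called 1 probe set and 1 gene higher (Sf3b6, adjusted p = 0.0463). The fit of all 9 arrays takes part of its spread from the cord arrays, which were closer to each other than the captured ones.

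In wild-type neurons against cord these log2 changes went from below to above 0: after quantile normalization Lsm12 (0.0796), Gemin7 (0.17), Sf3b1 (0.0507), Snrnp35 (0.17) and Zmat5 (0.32), and after centring Snrpd3 (0.41), Sf3a1 (0.0702), Lsm12 (0.11), Gemin7 (0.43), Sf3b6 (0.52), Sf3b1 (0.30), Snrnp35 (0.14) and Zmat5 (0.26). In mutant neurons against cord Lsm12 (0.16) and Gemin7 (0.16) did so after quantile normalization and Snrpd3 (0.29), Lsm12 (0.19) and Gemin7 (0.41) after centring. Over all probe sets the median of the first comparison went from -0.35 to 0.14 and 0.38; the cause of each change of sign was not tested.

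Leaving out 1 array gave, for wild-type neurons against cord, 21 to 23 probe sets higher and 20 to 26 lower, and 16 to 18 genes higher and 5 to 8 lower; for mutant neurons against cord 18 to 24 and 21 to 27 probe sets, and 14 to 19 and 6 to 10 genes; and between the genotypes 0 throughout. Between the genotypes, limma on 3 arrays a group limits what could be called.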
